A study of Rattus norvegicus with 6 samples.

Results

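Transcripts typical of the brain and spinal cord were found at high level in 1 of 6 rat dorsal root ganglion libraries, the one labelled sham replicate 3. They were selected on measured values: a gene was taken when it reached 10 CPM (expected counts scaled to a library total of 1000000) in sham replicate 3 and at least 8 times its highest CPM in the other 5 libraries, with values under 0.2 CPM raised to 0.2 for that ratio. The rule found 52 of the 14346 genes listed in the deposited files, which is 0.593% of the 8765 genes at 10 CPM or more in sham replicate 3. Because these values chose the genes, their levels are given as a description of 1 library, with no test.

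The libraries were made from rat dorsal root ganglia, which hold the cell bodies of sensory neurons and lie along the spinal column, taken 7 days after surgery. One group of 3 libraries followed partial sciatic nerve ligation (pSNL), in which part of the nerve to the hind limb is tied, a model of neuropathic pain, and the other group of 3 libraries followed a sham operation. No transgene, drug or other agent is named for either group, and strain, sex, age and ganglion level were not given in the sources used here. The labels do not state whether a library was 1 animal or a pool. Total expected counts lay between 4310643 and 4416121 per library, and 13135 to 13343 genes were listed in each, so sham replicate 3 (4310643 counts, 13343 genes) was close to the others in depth.

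In the brain and spinal cord, oligodendrocytes wrap axons in myelin, astrocytes carry water, ions and transmitter across their membranes, and local inhibitory neurons release GABA and glycine. Beyond the root entry zone, where nerve roots leave the cord, these cells give way to Schwann cells, which make peripheral myelin, and to satellite glia, which wrap the sensory neuron bodies. Central and peripheral myelin share some proteins, such as myelin basic protein, and differ in others, such as MOG and MOBP, which are found in the centre.

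Promoters are shown for an oligodendrocyte gene (Mobp), an astrocyte gene (Aqp4) and a neuron gene (Slc32a1) among the members, and for Pmp22, a peripheral myelin gene that was no member, because each stands for a cell class described here. The sequences are from RefSeq, assembly GRCr8, run 5′ to 3′ on the gene's strand from 250 bases before to 50 bases after the annotated start, and are shown with capitals for matches on either strand to the SOX core motif, ACAAAG, or the nuclear factor I half-site, TTGGC, where neighbouring matches may share bases. They lie at chr8:128746982-128747281 on the plus strand (Mobp), chr18:6798793-6799092 on the minus strand (Aqp4), chr3:167686995-167687294 on the plus strand (Slc32a1) and chr10:48294682-48294981 on the plus strand (Pmp22).
Mobp: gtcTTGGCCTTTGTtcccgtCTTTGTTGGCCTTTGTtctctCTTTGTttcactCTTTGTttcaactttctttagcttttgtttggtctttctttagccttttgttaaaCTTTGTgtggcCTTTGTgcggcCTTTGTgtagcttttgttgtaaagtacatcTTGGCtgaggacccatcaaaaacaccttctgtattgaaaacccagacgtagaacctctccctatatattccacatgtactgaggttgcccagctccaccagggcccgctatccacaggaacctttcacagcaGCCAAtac
Aqp4: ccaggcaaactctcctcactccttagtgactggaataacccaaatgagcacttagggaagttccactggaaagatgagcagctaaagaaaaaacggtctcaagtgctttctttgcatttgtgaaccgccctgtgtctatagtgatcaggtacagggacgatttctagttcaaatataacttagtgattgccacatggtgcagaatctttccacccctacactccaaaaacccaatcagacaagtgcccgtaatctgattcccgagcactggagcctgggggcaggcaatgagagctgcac
Slc32a1: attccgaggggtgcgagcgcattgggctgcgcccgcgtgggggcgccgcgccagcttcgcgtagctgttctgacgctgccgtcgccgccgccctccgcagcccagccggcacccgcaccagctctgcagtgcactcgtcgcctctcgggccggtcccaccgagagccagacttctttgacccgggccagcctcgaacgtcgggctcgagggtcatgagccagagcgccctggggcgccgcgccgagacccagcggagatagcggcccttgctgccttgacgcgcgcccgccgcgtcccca
Pmp22: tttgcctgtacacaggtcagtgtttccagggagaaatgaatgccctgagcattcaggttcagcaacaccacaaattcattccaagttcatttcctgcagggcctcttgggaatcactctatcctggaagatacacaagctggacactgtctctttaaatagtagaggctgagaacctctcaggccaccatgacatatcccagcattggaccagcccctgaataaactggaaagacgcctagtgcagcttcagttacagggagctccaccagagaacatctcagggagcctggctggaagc
The Mobp promoter held 8 matches to the SOX core and 4 to the half-site, and the other 3 promoters held none of either. Of 27457 promoters of the same length searched, 2, Mobp included, held 8 or more SOX core matches, the median was 0, and no other member held more than 2. A SOX core match was present in 19.5% of the 41 members with a listed promoter, against 18.3% of all promoters and 12.3% of those of genes at 10 CPM or more. The E-box CAGCTG, another motif searched on both strands, was in 29.3% of member promoters, 15.1% of all promoters and 15.9% of those of genes at 10 CPM or more. The half-site was in 41.5% of member promoters, 45.8% of all and 49.4% of those of genes at 10 CPM or more. The TATA motif, TATAAA, was in 9.76% of member promoters, below the 14.3% of all promoters and above the 6.27% of those of genes at 10 CPM or more. Slc32a1 had the most GC-rich of the printed promoters, at 73.7%, and the median GC content was 60.3% over member promoters, 52.3% over all promoters and 61.7% over promoters of genes at 10 CPM or more. A match is only a description of letters in this window.

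Together the members held 4774 CPM in sham replicate 3, against 138, 148 and 136 CPM in pSNL replicates 1 to 3 and 118 and 117 CPM in sham replicates 1 and 2. This was 36.3 times the mean of the other 5 libraries, and 0.477% of all counts of sham replicate 3. The other 5 libraries lay close together, with both groups near the same low level. The ratio to the highest other library ran from 8.40 to 562 with a median of 22.8. It was at least 100 for 8 members and below 20 for 21. In 38 members no other library passed 3 CPM, while 31 members were listed in all 6 libraries, so most were measured at a low level in the other ganglion libraries too. All 52 were annotated as protein coding. When each other library was put in the place of sham replicate 3, the rule found 3 genes in pSNL replicate 2 (Egr1, Fos and Fosb, immediate early genes), and none in the remaining 4.

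**Figure D1:**
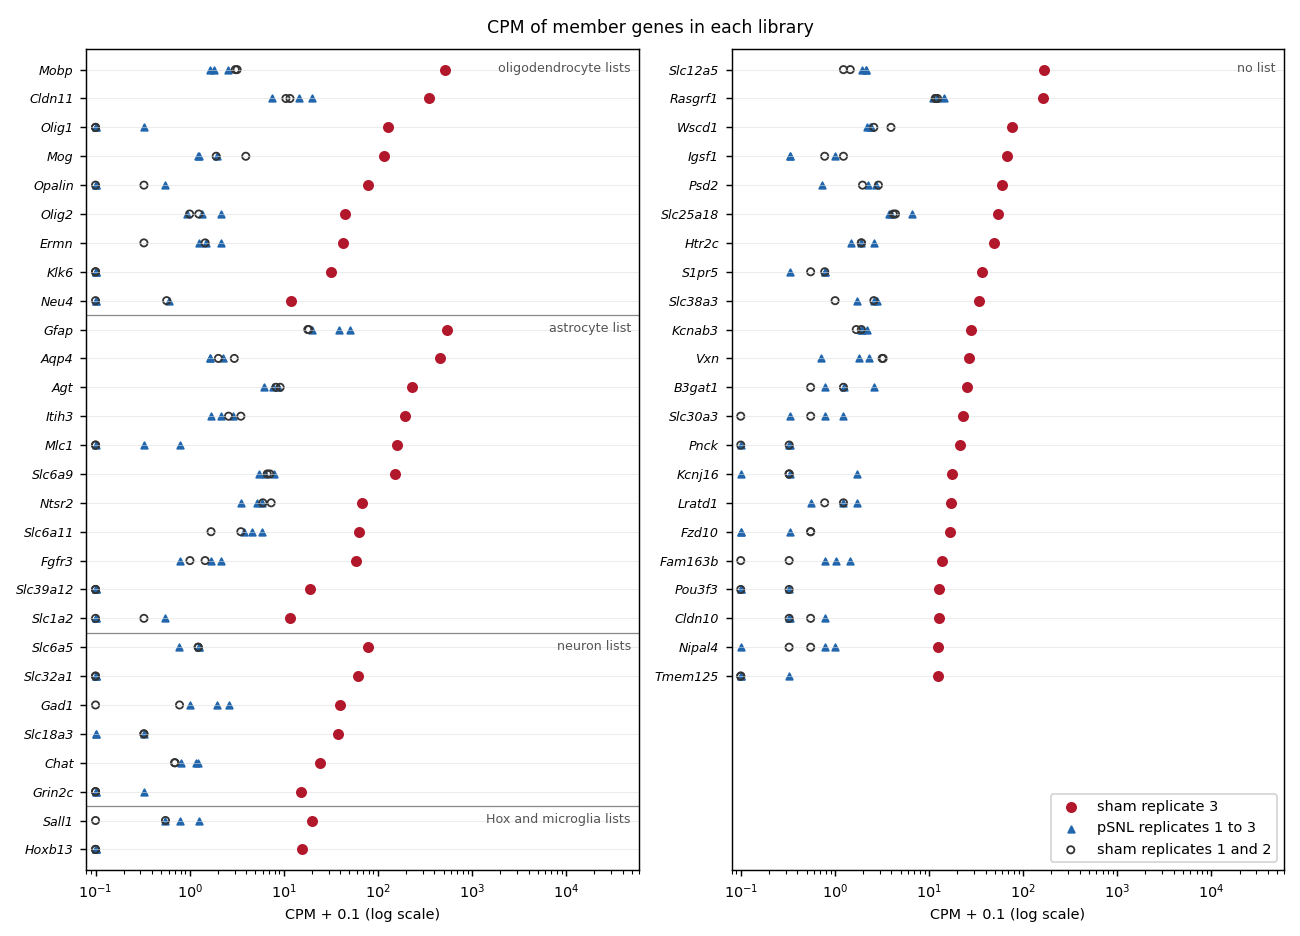
CPM of 50 of the 52 members, with 0.1 added, on a log axis, one row per gene, grouped by the cell type list that holds it and ordered by CPM in sham replicate 3. Filled circles are sham replicate 3, triangles the 3 pSNL libraries and open circles sham replicates 1 and 2. The filled circles stand apart to the right in every row, as the rule requires, and the other libraries lie together at low values.

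Of 25 gene lists, most of them for cell types, 15 were classed as central, and 30 members fell in 8 of those. The list of all measured Hox genes, which is not for a cell type, was counted as central and gave 1 member, Hoxb13. No member fell in a list for ganglion cells, for genes shared by central and peripheral glia, or for other tissues, and 22 members were in no list. Those 3 kinds of list held 64, 22 and 14 genes at 10 CPM or more in sham replicate 3. The share of members over all genes of that level was 0.593%, so 0 in sets of this size is near it. The rule also selects against genes that the other 5 libraries hold at high level. Per transcript length, the 10 highest members in sham replicate 3 were Gfap at 200 FPKM, Cldn11 at 187, Mobp at 151, Agt at 118, Aqp4 at 93.1, Mog at 73.4, Itih3 at 69.7, Olig1 at 59.7, Mlc1 at 57.0 and Slc6a9 at 46.8 FPKM. Of these 10, 6 are in the astrocyte list and 4 in the oligodendrocyte list.

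Oligodendrocyte genes included the highest ratio of all members. Of 22 genes of this list at 10 CPM or more in sham replicate 3, 9 were members. Mobp (gene ID 25037), a structural protein of compact central myelin, had 524 CPM in sham replicate 3, against 1.54, 2.48 and 1.70 CPM in pSNL replicates 1 to 3 and 3.10 and 2.96 CPM in sham replicates 1 and 2. Its ratio to the other 5 libraries pooled was 217 (95% counting interval 165 to 290). Intervals of this kind are exact and cover counting error only, since no molecular identifiers are named for these reads. Mog (gene ID 24558), a glycoprotein on the outer face of central myelin, had 117 CPM in sham replicate 3, against 1.15, 1.84 and 1.13 CPM in the pSNL libraries and 3.85 and 1.82 CPM in sham replicates 1 and 2. The pooled ratio was 59.6 (43.6 to 83.4). Mog overlaps Zfp57 in the RefSeq annotation, and whether counting used strand is not known.

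Cldn11 (gene ID 84588), which forms the tight junctions between central myelin layers, was present at 3.99 to 10.7 FPKM in the other libraries, above the 0.440 to 0.890 FPKM of Mobp there. It had 351 CPM in sham replicate 3, against 20.002, 14.3 and 7.47 CPM in pSNL replicates 1 to 3 and 11.6 and 10.4 CPM in sham replicates 1 and 2, a pooled ratio of 27.6 (24.3 to 31.5). Olig1 and Olig2, a pair of transcription factors that set the oligodendrocyte lineage, are next to each other on chromosome 11. Olig1 (gene ID 60394) had 129 CPM in sham replicate 3 and 1 count in the other 5 libraries together, at 0.230 CPM in pSNL replicate 1. Its ratio to the highest other library, 562, was the highest of the members, and its pooled ratio of 2833 had a counting interval from 506 to 112089. Olig2 had 44.9 CPM in sham replicate 3, against 1.26, 0.834 and 2.03 CPM in the pSNL libraries and 0.902 and 1.15 CPM in sham replicates 1 and 2.

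Opalin, a membrane protein of oligodendrocyte loops at the node, had 77.9 CPM in sham replicate 3 and 3 counts in the other 5 libraries together. Ermn, a cytoskeletal protein of late oligodendrocytes, had 42.2 CPM in sham replicate 3 and 0.227 to 2.04 CPM elsewhere. Both stood far above the other 5 libraries in sham replicate 3, and among those 5 the groups overlapped. Klk6, a secreted protease of oligodendrocytes, had 138 counts (32.0 CPM) in sham replicate 3 and none in the other 5, which is at least 46-fold over 3 counts in a library. In the precursor list 2 of 8 genes at 10 CPM or more were members, Olig2 and the sialidase gene Neu4. Neu4 had 11.9 CPM in sham replicate 3, 0.505 CPM in pSNL replicate 3, 0.470 CPM in sham replicate 2 and none elsewhere.

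Other oligodendrocyte genes were high in sham replicate 3 and stayed below the limit. Tf, the iron carrier transferrin, had 507 CPM in sham replicate 3, against 63.9, 86.4 and 94.9 CPM in pSNL replicates 1 to 3 and 36.9 and 45.9 CPM in sham replicates 1 and 2, 5.34 times the highest other library. Bcas1, a gene of oligodendrocytes that are forming myelin, had 178 CPM there and 32.9 to 58.9 CPM elsewhere, a ratio of 3.02. Plekhb1, by contrast, had 544 CPM there and 401 to 554 CPM elsewhere, so it did not stand apart. Among genes of the list that are no member and averaged at least 10 CPM in the other 5 libraries, 8 of 9 were above all 5 in sham replicate 3, with a median of 2.74 times their mean. Over all 8687 such genes 23% were above and the median was 0.996 times. These values come from the libraries that the rule used, so they are a description.

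Astrocyte genes gave the most members of any list, 11 of 20 genes at 10 CPM or more. Gfap (gene ID 24387), the intermediate filament of astrocytes, which satellite glia and some Schwann cells also make, had 547 CPM in sham replicate 3, against 19.8, 50.7 and 38.3 CPM in pSNL replicates 1 to 3 and 18.4 and 17.9 CPM in sham replicates 1 and 2. Its ratio to the highest other library was 10.8, among the lower ratios of the members. Aqp4 (gene ID 25293), the water channel of astrocyte end feet, had 460 CPM in sham replicate 3, against 2.17, 1.55 and 1.54 CPM in the pSNL libraries and 2.89 and 1.92 CPM in sham replicates 1 and 2. The pooled ratio was 229 (170 to 316). Agt, angiotensinogen, had 232 CPM in sham replicate 3 and 6.11 to 9.07 CPM elsewhere. It overlaps Capn9 and Cog2 in the annotation. Itih3, a heavy chain of a protease inhibitor that binds hyaluronan, had 195 CPM there and 1.59 to 3.40 CPM elsewhere.

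Mlc1, a membrane protein of perivascular end feet, had 687 counts (159 CPM) in sham replicate 3 and 4 counts in the other 5 libraries together. Slc6a9, the glycine transporter GlyT1 (overlapping Ccdc24), had 151 CPM in sham replicate 3 and 5.30 to 7.70 CPM elsewhere. The GABA transporter gene Slc6a11 (GAT3) had 62.9 CPM there and 1.59 to 5.75 CPM elsewhere. Both transporters remove inhibitory transmitters from around synapses. The neurotensin receptor gene Ntsr2 had 68.4 CPM in sham replicate 3 and 3.40 to 7.25 CPM elsewhere. The growth factor receptor gene Fgfr3 had 58.5 CPM there and 0.691 to 2.07 CPM elsewhere. Slc39a12, a zinc transporter, had 82 counts in sham replicate 3 and none in the other 5, at least 27.3-fold over 3 counts in a library. Slc1a2, the main glutamate transporter of astrocytes in the forebrain, lay nearest to the level limit, at 11.6 CPM in sham replicate 3 and at most 0.453 CPM elsewhere.

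Astrocyte genes that the other ganglion libraries also held at high level did not reach the limit. S100b had 1780 CPM in sham replicate 3 and 1216 to 1625 CPM elsewhere, a ratio of 1.10 to the highest. Aldoc, an aldolase, had 1312 CPM there and 588 to 760 CPM elsewhere. The proteoglycan gene Bcan had 297 CPM there and 111 to 171 CPM elsewhere. Of 6 astrocyte genes that are no member and averaged at least 10 CPM in the other 5 libraries, 5 were above all 5, with a median of 1.89 times their mean. Ncan was not, with 20.9 CPM in sham replicate 3 and 14.5 to 36.9 CPM elsewhere. Some astrocyte genes that were low elsewhere also missed the limit. Gjb6 had 23.4 CPM in sham replicate 3 and 0.227 to 5.29 CPM elsewhere, and Aldh1l1 had 25.3 CPM there and 5.29 to 9.74 CPM elsewhere.

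Transcripts of central neurons were present with the glial ones. In the list for inhibitory neurons 4 of 8 genes at 10 CPM or more were members. Slc32a1 (gene ID 83612), which loads GABA and glycine into synaptic vesicles, had 265 counts (61.5 CPM) in sham replicate 3 and no count in any other library, at least 88.3-fold over 3 counts in a library. Slc6a5, the glycine transporter GlyT2 of glycinergic neurons, had 78.6 CPM in sham replicate 3, against 1.15, 1.15 and 0.679 CPM in pSNL replicates 1 to 3 and 1.13 and 1.13 CPM in sham replicates 1 and 2. Gad1, an enzyme that makes GABA, had 39.4 CPM in sham replicate 3, 0.920 to 2.49 CPM in the pSNL libraries, and 0 and 0.681 CPM in sham replicates 1 and 2. Other genes of this list, Lamp5, Sst and Npy, were expressed by the ganglion libraries as well. Npy, which sensory neurons make after nerve injury, had 41.1 CPM in sham replicate 3, below the 102, 241 and 220 CPM of the pSNL libraries and above the 18.8 and 11.6 CPM of sham replicates 1 and 2.

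Cholinergic genes, which mark motor neurons in the ventral cord, gave 2 members of 4 genes at 10 CPM or more. Slc18a3, the vesicular acetylcholine transporter, had 161 counts (37.3 CPM) in sham replicate 3 and 3 counts in the other 5 libraries together. Chat, the enzyme that makes acetylcholine, had 24.0 CPM in sham replicate 3 and 0.592 to 1.14 CPM elsewhere. The pair overlap on chromosome 16, so reads of one may be counted for the other. Chodl, a gene of fast motor neurons in mice, had 33.2 CPM in sham replicate 3 and 4.61 to 11.1 CPM elsewhere. The choline transporter gene Slc5a7 had 28.5 CPM there and 7.59 to 12.7 CPM elsewhere. Both were above all 5 others and below the limit. Among 15 synapse genes at 10 CPM or more, only Grin2c, an NMDA receptor subunit, was a member, with 66 counts (15.3 CPM) in sham replicate 3 and 1 count in the other 5. Grin1, the obligate subunit, had 254 CPM there and 140 to 194 CPM elsewhere, and the scaffold gene Dlg4 had 250 CPM there and 142 to 206 CPM elsewhere.

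Hox genes keep the position of cells along the body axis, and the higher paralog numbers are expressed more caudally. Hoxb13 was a member, with 67 counts (15.5 CPM) in sham replicate 3 and none in the other 5 libraries, at least 22.3-fold over 3 counts in a library. The other 4 measured genes of paralog numbers 10 to 13 were also above all 5 other libraries, and Hoxc12 and Hoxa13 had no count there. Hoxd10 had 5.80 CPM in sham replicate 3, against 3.91, 2.77 and 0.679 CPM in pSNL replicates 1 to 3 and 0.453 and 0.681 CPM in sham replicates 1 and 2. Hoxc12 had 18 counts (4.18 CPM) in sham replicate 3. Hoxa11 had 7 counts (1.62 CPM) there and at most 0.460 CPM elsewhere. Hoxa13 had 6 counts (1.39 CPM) there, so these 2 genes rest on few counts. Of 19 genes of paralog numbers 1 to 9, 4 were above all 5 others (Hoxb5, Hoxb7, Hoxb8 and Hoxb9). The share above all 5 was 26.6% over all non-member genes that averaged under 10 CPM in the other 5 libraries. Hoxb8 reached 38.5 CPM in sham replicate 3 and 4.61 to 12.7 CPM elsewhere.

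**Figure D2:**
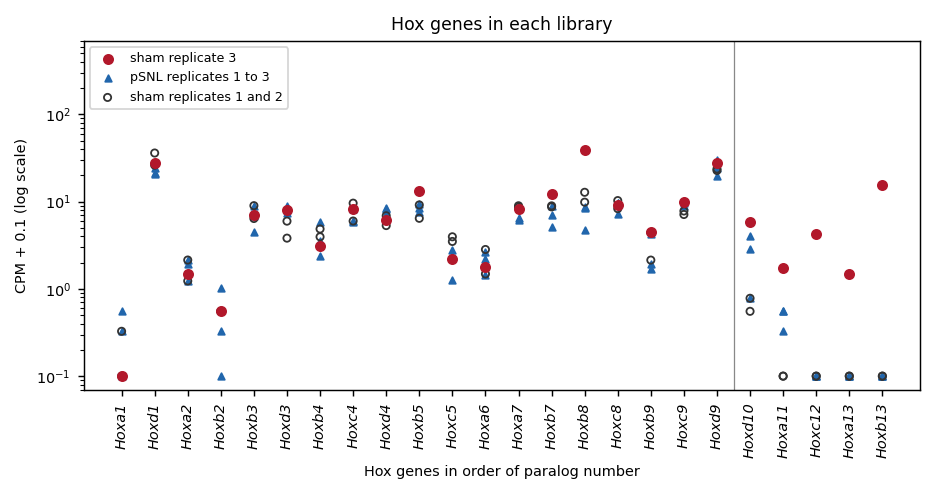
CPM of the measured Hox genes, with 0.1 added, on a log axis, in order of paralog number, where the line parts numbers 1 to 9 from 10 to 13. Filled circles are sham replicate 3, triangles the 3 pSNL libraries and open circles sham replicates 1 and 2. To the right of the line the filled circle is the highest point in each of the 5 genes, and to its left it is the highest in 4 of 19.

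Of the microglia list, 1 of 7 genes at 10 CPM or more was a member, Sall1, a transcription factor that other tissues use too, with 19.95 CPM in sham replicate 3 and 0 to 1.15 CPM elsewhere. Csf1r, which macrophages also express, had a ratio of 0.692 to the highest other library, and Olfml3 had one of 0.678. The median ratio of the 7 genes was 1.12. Of 4 microglia genes that are no member and averaged at least 10 CPM in the other 5 libraries, 1 was above all 5 and 1 below. Other genes of the list were higher in sham replicate 3 than in the other sham libraries. Leaving it out raised the log2 fold change pSNL over sham of P2ry12 (-0.49 to 0.71) and Tmem119 (-0.12 to 1.17). That of Olfml3 fell, from 0.21 to 0.08. The whole list, Sall1 included, summed to 224 CPM in sham replicate 3. Its sums were 179, 212 and 194 CPM in pSNL replicates 1 to 3 and 127 and 138 CPM in sham replicates 1 and 2. Several central lists held no member. These were the lists for central extracellular matrix (7 genes at 10 CPM or more), excitatory dorsal horn neurons (5), forebrain, midbrain and cerebellum identity (3), ependymal cells (2), choroid plexus (1), blood-brain barrier vessels (8) and meninges (4). Of their genes averaging at least 10 CPM in the other 5 libraries, some were above all 5. These were 4 of 6 for matrix, 0 of 3 for dorsal horn, 1 of 3 for forebrain, midbrain and cerebellum and 1 of 1 for ependymal cells. They were 0 of 1 for choroid plexus, 4 of 7 for barrier vessels and 1 of 4 for meninges, beside 23% over all such non-member genes. The forebrain, midbrain and cerebellum list summed to 124 CPM in sham replicate 3 and 53.9 to 63.8 CPM elsewhere. In the choroid plexus list Ttr, which encodes transthyretin, was at 0 in sham replicate 3 and at 0 to 0.690 CPM elsewhere, so no difference was detectable at this depth. Folr1, a folate receptor, had 1.62 CPM there and at most 0.230 CPM elsewhere. The only gene of this list at 10 CPM or more, Sostdc1, had 28.5 CPM in sham replicate 3 and 43.5 to 113 CPM elsewhere. In the dorsal horn list Tac1, which ganglion neurons also express, had 272 CPM in sham replicate 3 and 280 to 444 CPM elsewhere.

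The 22 members outside the lists included other genes known from central neurons and glia. Slc12a5, the chloride exporter KCC2, had 169 CPM in sham replicate 3, against 2.07, 1.84 and 2.04 CPM in pSNL replicates 1 to 3 and 1.36 and 1.13 CPM in sham replicates 1 and 2, a pooled ratio of 100.1 (71.9 to 143). It is known for making GABA and glycine inhibitory in mature central neurons. Rasgrf1, an exchange factor of Ras in neurons, had 163 CPM there and 10.8 to 14.3 CPM elsewhere. Htr2c, a serotonin receptor, had 49.4 CPM there and 1.38 to 2.53 CPM elsewhere. S1pr5, a lipid receptor of oligodendrocytes, had 36.7 CPM there and 0.230 to 0.691 CPM elsewhere. Slc38a3, a glutamine transporter, had 34.1 CPM in sham replicate 3 and 0.907 to 2.72 CPM elsewhere. The remaining 17 (Wscd1, Igsf1, Psd2, Slc25a18, Kcnab3, Vxn, B3gat1, Slc30a3, Pnck, Kcnj16, Lratd1, Fzd10, Fam163b, Pou3f3, Cldn10, Nipal4 and Tmem125) lay between 12.3 and 76.1 CPM in sham replicate 3. As a group picked after the values were seen, 12 members were solute carriers, 23.1% of the members and 2.07% of all genes at 10 CPM or more in sham replicate 3.

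**Figure D3:**
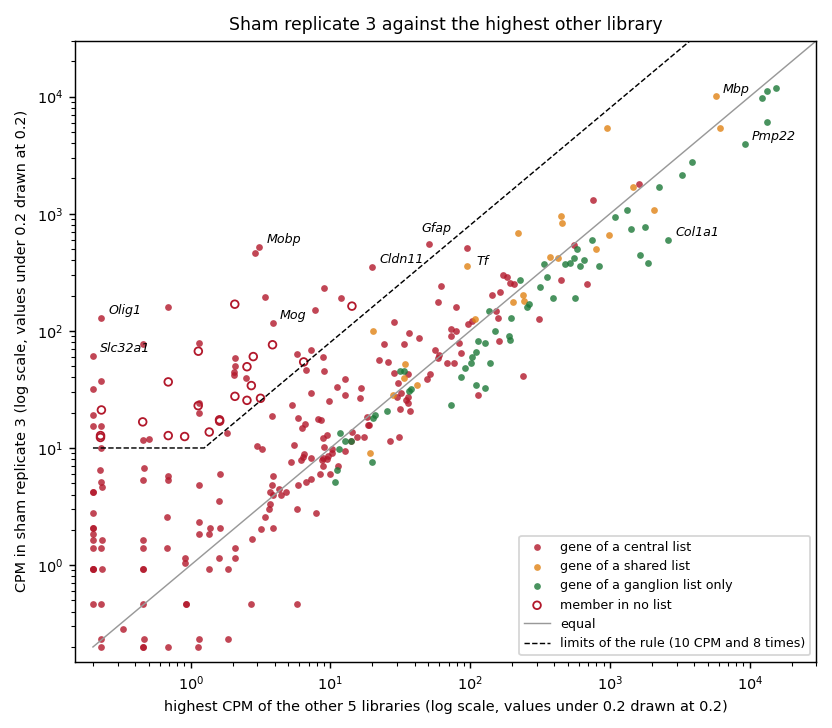
CPM in sham replicate 3 against the highest CPM of the other 5 libraries, both on log axes with values under 0.2 drawn at 0.2, for genes of the cell type lists and for members in no list. Points above the dashed line meet the rule. Red points fill that area, Mbp lies below the dashed line but above the line of equality, and the green points of ganglion lists lie mostly along or below equality.

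The largest differences in CPM, which is not scaled to gene length, were in genes that did not meet the rule and were high in all 6 libraries. Only 4 members (Mobp, Gfap, Aqp4 and Cldn11) were among the 20 genes with the largest excess over the highest other library. Mbp, myelin basic protein, had 10027 CPM in sham replicate 3, against 3525, 4036 and 5693 CPM in the pSNL libraries and 3476 and 3207 CPM in sham replicates 1 and 2. Its excess over the highest other library was 4335 CPM and its ratio 1.76. Of 13 myelin genes shared by oligodendrocytes and Schwann cells, 7 were above all 5 other libraries and 2 below. Cnp, a myelin enzyme, had 834 CPM in sham replicate 3 and 336 to 452 CPM elsewhere, while Mal, a myelin proteolipid, had 659 CPM there and 453 to 986 CPM elsewhere. Of 10 genes shared by astrocytes and satellite glia, 6 were above all 5 and 1, Vim, was below. Glul, glutamine synthetase, had 958 CPM in sham replicate 3 and 384 to 443 CPM elsewhere.

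Genes of the ganglion's own cells stayed below the limit throughout, as did most genes at 10 CPM or more, of which 0.593% were members. Schwann cell myelin genes were lower in sham replicate 3: 10 of 13 that averaged at least 10 CPM in the other 5 libraries were below all 5 and 0 above, beside 19.6% below over all non-member genes of that level, and their median was 0.59 times the mean of the others. Pmp22, a membrane protein of peripheral myelin whose promoter is printed above, had 3937 CPM in sham replicate 3, against 6047, 6972 and 9217 CPM in pSNL replicates 1 to 3 and 6033 and 5086 CPM in sham replicates 1 and 2. Prx, periaxin, had 766 CPM in sham replicate 3 and 985 to 1776 CPM elsewhere. In bulk tissue fewer cells of a type and less RNA per cell cannot be told apart.

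Connective tissue genes followed a like pattern, with 7 of 11 below all 5 others and 2 above. Col1a1, a fibrillar collagen chain, had 598 CPM in sham replicate 3, against 1551, 2602 and 1797 CPM in pSNL replicates 1 to 3 and 1424 and 997 CPM in sham replicates 1 and 2. Sensory neuron genes were nearer to the others, with 6 of 23 below all 5, 2 above and a median of 0.90 times the mean. The neurofilament gene Nefm had 11814 CPM in sham replicate 3, against 12043, 10485 and 10408 CPM in the pSNL libraries and 14233 and 15303 CPM in sham replicates 1 and 2, and Prph, peripherin, had 2765 CPM there and 3478 to 3838 CPM elsewhere. Sham replicate 3 thus held the neuron genes of a dorsal root ganglion, as labelled, beside the central ones. Satellite glia genes were split, with 4 of 11 above and 4 below. The highest ratios of any gene in a ganglion list were in that one, 4.96 for Slc1a3, a glutamate transporter, and 3.88 for Gja1, connexin 43, and astrocytes are known to express both. Sparc, a matrix glycoprotein, had 2138 CPM in sham replicate 3 and 2434 to 3290 CPM elsewhere.

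**Figure D4:**
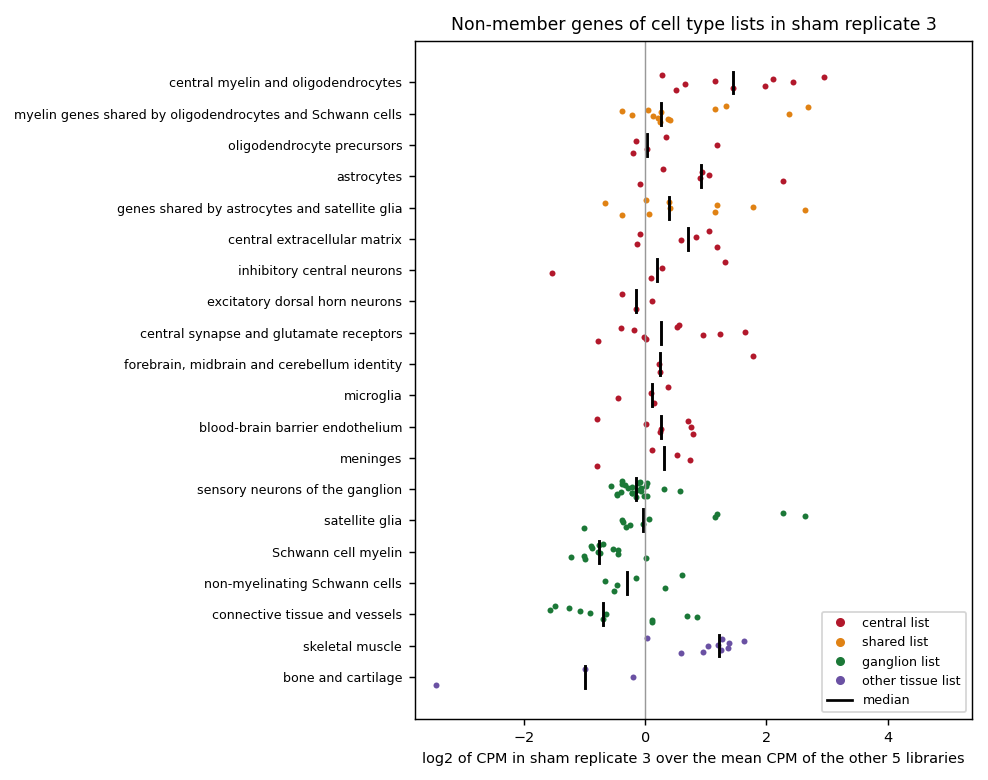
Log2 ratio of CPM in sham replicate 3 to the mean CPM of the other 5 libraries for genes that are no member and averaged at least 10 CPM in the other 5, one row per cell type list with at least 3 such genes. Points are genes and black bars are medians. The medians of the oligodendrocyte and astrocyte lists lie right of 0, at 2.74 and 1.89 times, with that of skeletal muscle at 2.34 times, and the Schwann cell myelin and connective tissue lists lie left of 0, with medians of 0.59 and 0.62 times.

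A further list differed in this library. Skeletal muscle genes summed to 880 CPM in sham replicate 3, 1548 CPM in pSNL replicate 3 and 163 to 243 CPM in the remaining 4 libraries. Acta1, skeletal muscle actin, had 194 CPM in sham replicate 3, against 8.51, 11.1 and 363 CPM in pSNL replicates 1 to 3 and 10.5 and 7.83 CPM in sham replicates 1 and 2. No muscle gene met the rule, because pSNL replicate 3 was higher. The part of muscle transcripts in the values above was not tested.

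Just inside the ratio limit were Vxn at 8.40, Slc25a18 at 8.43, Ntsr2 at 9.44 and Fam163b at 10.1 times the highest other library. Just outside were Pde1b at 7.68, Grm3 at 7.42, Grip2 at 7.15 and Slc7a10 at 6.89 times. Just inside the level limit were Slc1a2 at 11.6, Neu4 at 11.9, Tmem125 at 12.3 and Nipal4 at 12.5 CPM, and just outside were Nkx6-2 at 9.98, Mapk15 at 7.42, Garem2 at 6.73 and Tac3 at 6.73 CPM. Nkx6-2, a transcription factor of oligodendrocytes, had a ratio of 44.0 and missed the rule by its level alone. A further 38 genes had ratios of 4 to 8, and 34 had ratios of at least 8 below 10 CPM.

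The comparison of pSNL with sham asks which ganglion genes change after nerve injury, and sham replicate 3 is 1 of its 3 sham libraries. With all 6 libraries 51 of 11091 tested genes passed an adjusted p of 0.05 (0.46%), in edgeR's quasi-likelihood test with Benjamini-Hochberg adjustment. The count was 217, 9 and 96 without pSNL replicates 1, 2 and 3 and 21, 5 and 33 without sham replicates 1, 2 and 3. Of the members, 37 did not pass the filter on low counts and 15 were tested. In edgeR 0 of these passed, also at an unadjusted p of 0.05. The rule sets sham replicate 3 apart from the other sham libraries, which widens the spread within sham for each member. That 0 and the members' p-values with all 6 libraries are therefore no measure of an injury effect. A count of 0 of 15 is also near the 0.46% share over all tested genes. DESeq2 was given all 14346 genes, a larger set, of which 332 passed. Of the 52 members 1 was among them, Vxn. All 15 had negative log2 fold changes, a direction that the rule fixes. Without sham replicate 3, 33 of 11277 genes passed (0.293%), of which 21 were among the 51. Again edgeR called 0 of 15 members, also with 0 at an unadjusted p under 0.05, and DESeq2 was not run on those 5 libraries.

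Several members changed direction when sham replicate 3 was left out. On the log2 scale pSNL over sham was -2.41 ± 1.68 (SE) for Gfap with all 6 libraries (edgeR adjusted p = 0.571), and 0.98 ± 0.41 without that library (adjusted p = 0.36). In CPM its pSNL libraries, at 19.8, 50.7 and 38.3, were all above sham replicates 1 and 2, at 18.4 and 17.9. Cldn11 had -3.15 ± 1.79 with all 6 (edgeR adjusted p = 0.495) and 0.31 ± 0.35 without it (adjusted p = 0.725). Mobp kept its sign, at -6.44 ± 2.95 (edgeR adjusted p = 0.408) and -0.64 ± 0.45 (adjusted p = 0.549). The sign turned in 7 of the 15 tested members, all to positive, the only turn possible once the rule had fixed it as negative. The shares in other genes, which could turn either way, are therefore no measure for the members. The sign turned in 26 of 115 other genes of the central lists (22.6%), in 39.1% of 23 genes of the shared lists and in 13.4% of all 11091 genes tested in both fits. Tf, below the limit of the rule, had -1.25 ± 1.22 with all 6 (edgeR adjusted p = 0.690) and 0.97 ± 0.19 without that library (adjusted p = 0.0880). Its CPM in each pSNL library was above both of the other sham libraries. None of these changes passed the threshold in either fit, and with all 6 libraries the rule itself widens the spread for members.

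**Figure D5:**
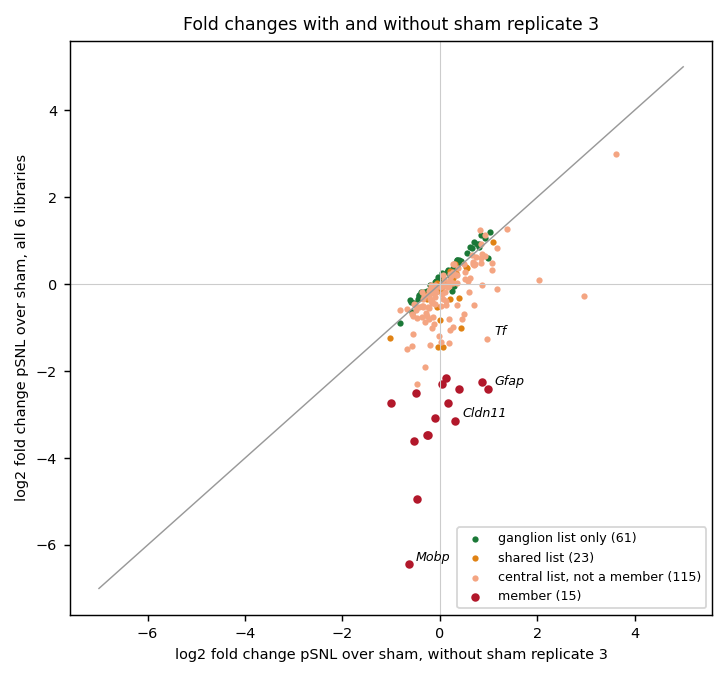
Log2 fold change of pSNL over sham with all 6 libraries against the same without sham replicate 3, one point per gene of the lists or members tested in both fits, with the line of equality. The 15 members lie far below the line, between -6.44 and -2.15 with all 6 libraries and between -0.99 and 0.98 without sham replicate 3. The 61 genes of ganglion lists only lie along the line.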

How the data were processed

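RNA was extracted with Trizol from frozen ganglia and made into libraries from 1 µg of total RNA, per the labels' protocols, which name both a BGISEQ-500 kit and Illumina preparation. Per the file headers, the deposited files hold expected counts, FPKM and gene lengths. The authors estimated the expected counts (89.1% to 89.5% of the values were whole) and scaled FPKM by length and depth. CASAVA 1.4 and Bowtie2 are named in the submitters' processing notes, while quantifier, genome build, annotation and strand use were not given in the sources used here. Genes absent from a file were taken as 0. Identifiers were matched to RefSeq GRCr8, 14227 by gene ID and 16 by transcript accession, and 103 kept their ID. That table gave names, neighbours and overlaps only, and its promoter table the printed sequences.

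CPM was computed here as the expected count times 1000000 over the library total. Members, lists and tests were chosen with earlier results of these data known. Genes named are the 10 members highest in FPKM, up to 6 members and 3 others of at least 10 CPM per central list, the 4 highest of each other list, the genes nearest each limit, Mobp, Mog, Cldn11 and Gfap, and genes behind counts of 5 or fewer. Members in no list could be named. Ermn, Klk6, Slc6a11, Fgfr3, Slc39a12, Ttr, Folr1, P2ry12, Tmem119, Ncan, Gjb6 and Aldh1l1 were picked after their values were seen. Some genes that this rule would name are not reported here. Counts of list genes above or below the other 5 libraries leave out members and take the level from those 5, a choice made after seeing the data. Ratios to pooled libraries have exact 95% intervals. A count of 0 allows up to 3 counts, 0.68 to 0.70 CPM in a library.

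Rounded expected counts were compared with edgeR 4.0.16 in R 4.3.3 (TMM, filterByExpr, robust quasi-likelihood F test, Benjamini-Hochberg adjustment, threshold 0.05), tested on simulated data, and with DESeq2 1.42.0 as an alternative. Standard errors were derived from the F statistic. P-values measure the spread between libraries, which may be technical, as the labels do not say that libraries are separate animals. Same-numbered libraries did not deviate together over all genes in every pair, so numbers were not taken as pairs.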

Additional observations from a re-analysis of the deposited data

How the results depend on the processing

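The number of member genes, 52, stayed at 52 with TMM-scaled CPM, with FPKM for the ratio and with a ratio floor of 0.5 or 1 CPM. It was 90 with a ratio limit of 4 and 37 with 16, and 62 and 38 with level limits of 5 and 20 CPM. With members counted and the level averaged over all 6 libraries, 14 of 15 oligodendrocyte and 15 of 16 astrocyte genes were above all 5 others, counts that the rule itself raises. At a ratio limit of 4, 1 gene of a ganglion list, Slc1a3, joined the members. Leaving out 1 of the other 5 libraries gave 52 to 64 members. Pooled ratios resting on few counts moved most: 27 of 396 alternative values, in 9 of 57 genes, left the counting interval. Without pSNL replicate 1 the ratio of Kcnj16 was 102 in place of 38.1. Without pSNL replicate 2 that of Mlc1 was 2802 in place of 873, and without pSNL replicate 3 that of Opalin was 1365 in place of 570 and that of Slc1a2 203 in place of 84.8.

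The genes passing the threshold between pSNL and sham, 51, numbered 5 to 217 with 1 library left out, 332 by DESeq2, 89 with no filter on low counts and 48 with DESeq2 size factors. With the replicate block, 111 genes and 0 members passed. Correlations of same-numbered libraries were 0.03, 0.01 and 0.12. DESeq2 called 1 member, Vxn, and every other setting called 0, counts that the rule affects wherever sham replicate 3 is in the fit. Without sham replicate 3 the log2 fold change was reversed for Gfap (0.98), Tf (0.97) and Cldn11 (0.31). Over all fits without 1 library it ran from -2.95 to 0.98 for Gfap, from -1.75 to 0.97 for Tf and from -3.70 to 0.31 for Cldn11. At 4310643 to 4416121 counts a library, genes of a few CPM rest on few counts, and the members have no replicate of sham replicate 3. The cause of these differences was not tested.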
